A study of Mus musculus with 16 samples.

Results

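The 10 circadian clock genes described here were Arntl, Clock, Per1, Per2, Per3, Cry1, Cry2, Nr1d1, Nr1d2 and Dbp. They were taken by symbol, with earlier results of these data known, and each had 1 row among the 23282 rows of the count tables. All 10 passed the filter on low counts and were tested with 14854 rows in all.

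Total RNA from the skin of wild-type male C57BL/6N mice was sequenced with QuantSeq, which reads a short stretch next to the poly(A) tail of each messenger RNA. Cont mice ate normal chow. LowAhR mice ate a diet poor in ligands of the aryl hydrocarbon receptor (AhR) for 12 weeks and were kept on paper bedding free of such ligands. The paper names this bedding for the low-ligand diet group and gives none for Cont. LowAhR+AD mice ate the same diet. From 2 weeks into it, their backs were painted repeatedly every week with 1% 2,4-dinitrochlorobenzene (DNCB), a hapten that inflames the skin, to model atopic dermatitis. LowAhR+AD+BJ mice received the diet, DNCB and, by gavage from the same time on, 1 g/kg per day of Bojungikgi-tang (BJIKT), a water extract of herbs. DNCB and BJIKT were therefore given only on the low-ligand diet. The time from the last DNCB painting to sampling is not given in the sources used here. The mice were bought at 3 weeks of age and adapted for 1 week, with light and dark periods of equal length. Each group had 4 libraries, and the labels do not say how they relate to cages or days, so p-values measure the spread between these samples.

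The clock is a feedback loop of transcription that runs in nearly every cell, keratinocytes and fibroblasts of the skin included. BMAL1, the product of Arntl, pairs with CLOCK and activates the Per and Cry genes, whose proteins return to block the pair, and it also drives Nr1d1, Nr1d2 and Dbp. The REV-ERB proteins of Nr1d1 and Nr1d2 repress Arntl through elements that the ROR receptors use to activate it, so that Arntl and Dbp messenger RNAs peak at nearly opposite times of day. The level of a gene that cycles in a tissue thus depends on the hour of sampling. How strongly each member cycled in this skin was not measured. The hour at which the skin was taken in each group is not given in the sources used here, so a difference in hour and a difference in treatment cannot be told apart.

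Promoter windows of 4 members hold letter matches to short elements that clock proteins are known to bind. RefSeq (GRCm38.p6) windows of 300 bases, from 250 before to 50 after a start site, were matched by symbol for 9 of the 10 members, with 13 windows in all, and Per2 had none. They were searched on both strands for the E-box CACGTG bound by BMAL1 and CLOCK, the D-box TTANGTAA bound by DBP, the ROR element TAGGTCA, the cyclic AMP element TGACGTCA and the core AhR element GCGTG. Matches to different motifs share no base in the windows printed here, in which the matches to the E-box, the D-box and the ROR element stand in capitals.
Arntl chr7:113207261-113207560 (+ strand): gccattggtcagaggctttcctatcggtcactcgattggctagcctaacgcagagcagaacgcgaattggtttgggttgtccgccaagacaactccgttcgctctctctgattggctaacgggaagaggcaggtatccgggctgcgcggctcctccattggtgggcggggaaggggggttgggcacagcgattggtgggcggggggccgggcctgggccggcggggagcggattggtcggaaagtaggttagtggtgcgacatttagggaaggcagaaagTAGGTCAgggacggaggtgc
Per1 chr11:69098699-69098998 (+ strand): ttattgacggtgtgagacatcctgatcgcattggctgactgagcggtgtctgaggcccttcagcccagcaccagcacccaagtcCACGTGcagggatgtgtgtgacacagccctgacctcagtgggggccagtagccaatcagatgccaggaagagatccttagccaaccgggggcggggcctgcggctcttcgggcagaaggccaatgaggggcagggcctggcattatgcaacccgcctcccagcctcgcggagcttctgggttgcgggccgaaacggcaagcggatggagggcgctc
Cry1 chr10:85185005-85185304 (- strand): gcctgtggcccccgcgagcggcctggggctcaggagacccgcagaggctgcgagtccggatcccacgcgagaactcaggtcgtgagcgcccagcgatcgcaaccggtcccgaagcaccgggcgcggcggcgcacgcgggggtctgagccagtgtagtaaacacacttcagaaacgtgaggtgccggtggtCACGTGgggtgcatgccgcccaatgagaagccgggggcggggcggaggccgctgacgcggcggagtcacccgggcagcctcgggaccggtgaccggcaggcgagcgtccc
Per3 chr4:151044616-151044915 (- strand): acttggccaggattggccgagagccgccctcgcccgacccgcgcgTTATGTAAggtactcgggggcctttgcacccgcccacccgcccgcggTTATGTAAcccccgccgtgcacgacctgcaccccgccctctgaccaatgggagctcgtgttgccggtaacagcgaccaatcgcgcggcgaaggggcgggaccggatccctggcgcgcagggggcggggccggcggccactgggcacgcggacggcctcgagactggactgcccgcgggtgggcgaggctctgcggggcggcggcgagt

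The ROR element lay 31 bases into the transcribed part of the second Arntl window and in no other member, against 2.61% of 32851 windows of all genes. The E-box was found once each at Per1 (from base -166) and Cry1 (from base -60), and 7.15% of all windows held it. It was absent from the windows of Nr1d1, Nr1d2 and Dbp. The D-box occurred only at Per3, with 2 matches that began at bases -205 and -158, and 2.32% of all windows held it. The cyclic AMP element was in none of the member windows and in 1.79% of all windows. The short AhR core was in 9 of the 13 member windows, and 32.4% of all windows held it. Such matches are letters in a window and carry no measurement of binding.

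The libraries held 7080508 to 13467477 counts, and all 8 DNCB libraries were deeper than the 8 without DNCB. LowAhR+AD replicate 1 stood apart. It lacked any count for 38.2% of the genes expected, from the rest of the group, at 20 to 40 counts, and this share was 0.798% to 13.6% in the other 15 libraries. Most fold changes of members that rest on it are therefore also given without it. Markers of epidermal keratinocytes were present in every library, with summed levels of 5364 to 6815 CPM (counts scaled to a common library size, with TMM factors) in Cont and 7507 to 13617 CPM in LowAhR+AD. These markers did not move together. The median of Krt14 was 722 CPM in Cont and 3329 CPM in LowAhR+AD, whereas that of Krt10 was 2109 and 178 CPM. Of the 7 markers, the fitted difference between these groups was higher in LowAhR+AD for 5 and lower for 2. In a test for any difference among the 4 groups, edgeR's quasi-likelihood test called 3 of the 10 members at a Benjamini-Hochberg adjusted p under 0.05, against 23% of all tested genes. These were Clock (adjusted p = 0.0132), Arntl (0.0209) and Cry2 (0.0491), and Nr1d2 did not pass (0.0592). Clock was called whichever of the 16 libraries was left out, and Arntl was lost without Cont replicate 4 or LowAhR+AD replicate 4. Cry2 kept its call only without Cont replicate 3, LowAhR+AD replicate 1 or LowAhR+AD+BJ replicate 3, and lost it without a filter on low counts. The plot of levels by library shows all 10 members.

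**Figure D1:**
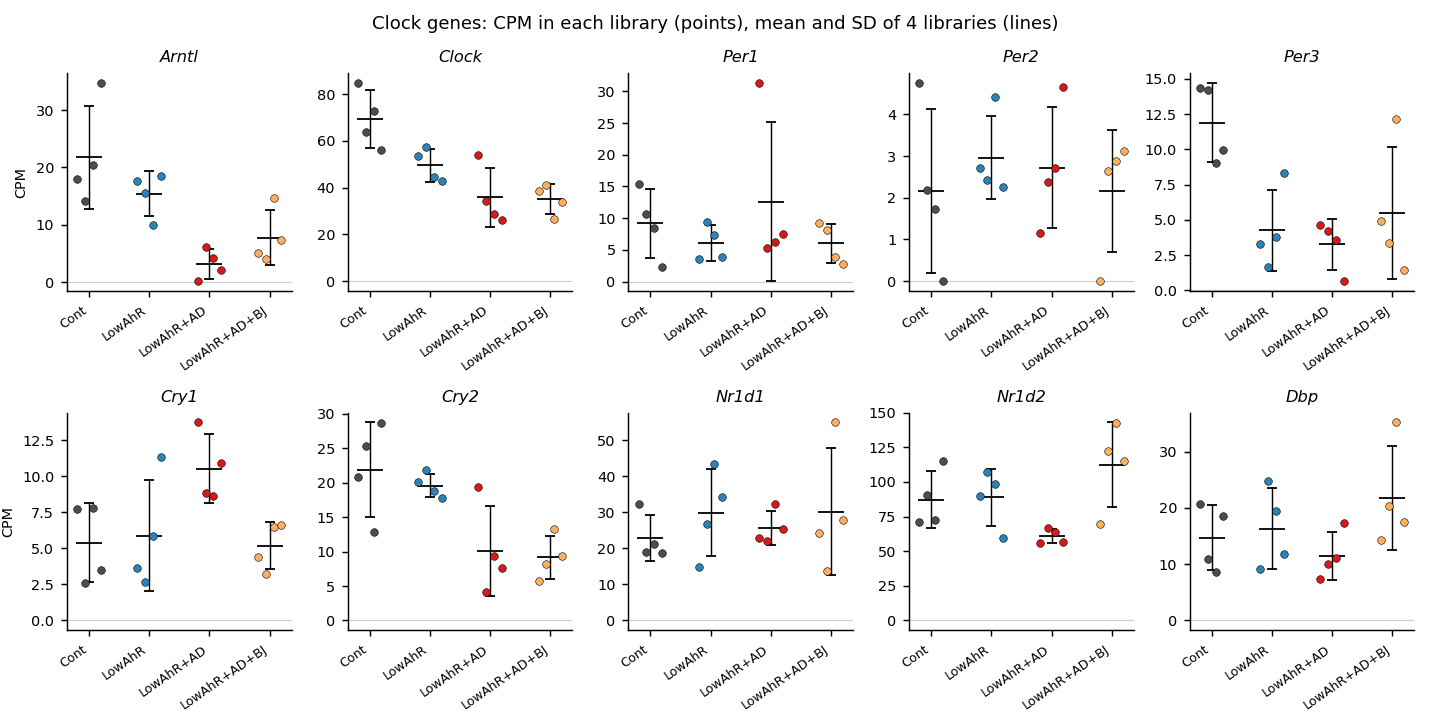
Level of each clock gene in CPM (linear vertical axis, own scale for each gene) in the 4 groups; points are libraries, in replicate order from left to right, and lines give the mean and SD of 4 libraries. The 4 LowAhR+AD libraries of Arntl lie below all Cont and LowAhR libraries, and LowAhR+AD replicate 1 holds the highest Per1 value.

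Arntl and Clock encode the activating pair of the loop, and these were the only members that edgeR called in LowAhR+AD against LowAhR or Cont. DESeq2 and limma voom also called Cry2 and Per3 lower against Cont. The share of all tested genes that those tools called is not reported here for any comparison, so their member counts have no background beside them. Arntl fell after DNCB on the low-ligand diet, by 2.28 on the log2 scale against LowAhR (SE 0.66, adjusted p = 0.0290). It was the 1 member called in that comparison, in which 12.6% of all tested genes were called and 6.21% were called lower. Against Cont, Arntl (log2 fold change -2.78, SE 0.67, adjusted p = 0.00662) and Clock (-0.95, SE 0.24, adjusted p = 0.00953) were both lower, so 2 members were called where 21.8% of all tested genes were, with 9.47% called lower. These comparisons share the LowAhR+AD libraries.

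Arntl was at 18, 14.1, 20.5 and 34.7 CPM in Cont replicates 1 to 4. In LowAhR it was at 17.7, 15.6, 9.89 and 18.5 CPM. In LowAhR+AD it was at 0.153, 6.15, 4.27 and 2.09 CPM, from 2, 75, 55 and 26 counts. The LowAhR+AD libraries all lay below every Cont and LowAhR library, and the lowest of them was the library that stood apart. With BJIKT it was at 5.02, 3.97, 14.7 and 7.36 CPM, a range that overlapped both LowAhR and LowAhR+AD. The group means were 21.8 ± 9.0 CPM in Cont, 15.4 ± 3.89 CPM in LowAhR, 3.17 ± 2.61 CPM in LowAhR+AD and 7.76 ± 4.84 CPM with BJIKT (SD, n = 4). Ranked by level, Cont and LowAhR were not told apart (adjusted p = 0.792), nor were LowAhR and LowAhR+AD+BJ (0.393) or LowAhR+AD+BJ and LowAhR+AD (0.531).

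Without LowAhR+AD replicate 1, Arntl in LowAhR+AD still differed by -1.88 on the log2 scale from LowAhR (adjusted p = 0.0220) and by -2.39 from Cont (0.00259). The call against LowAhR was lost when any of 4 libraries was left out, with adjusted p = 0.0665 without LowAhR replicate 1, 0.0575 without LowAhR replicate 2, 0.0502 without LowAhR replicate 4 and 0.0747 without LowAhR+AD replicate 4. The call against Cont held whichever of its 8 libraries was left out.

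**Figure D2:**
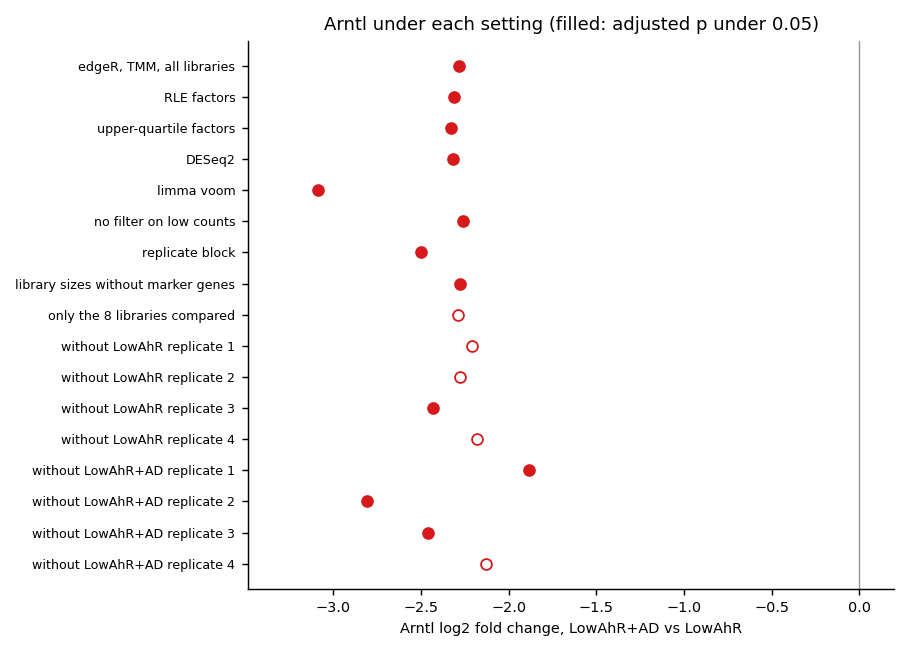
Log2 fold change of Arntl in LowAhR+AD against LowAhR (horizontal axis) under each analysis setting and with each library left out (rows); filled points had an adjusted p under 0.05. All points lie between -3.09 and -1.88, and 5 of the settings shown miss the threshold.

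Clock was at 84.7, 63.8, 72.7 and 56.0 CPM in Cont and at 53.6, 57.2, 44.4 and 43.0 CPM in LowAhR. In LowAhR+AD it was at 54.2, 34.3, 28.8 and 26.3 CPM, and in LowAhR+AD+BJ at 38.6, 41.1, 26.7 and 33.8 CPM. Every library given DNCB lay below every Cont library. The highest LowAhR+AD value was in the library that stood apart and overlapped the LowAhR range, while the LowAhR+AD+BJ libraries all lay below LowAhR. Clock was lower in LowAhR+AD+BJ than in Cont (log2 fold change -0.98, SE 0.24, adjusted p = 0.00813). Against LowAhR, neither LowAhR+AD (-0.46, adjusted p = 0.218) nor LowAhR+AD+BJ (-0.50, adjusted p = 0.233) passed the threshold. Without LowAhR+AD replicate 1, Clock was called lower in LowAhR+AD than in LowAhR (-0.74, adjusted p = 0.0368).

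The Period genes encode repressors that carry the delayed negative arm of the loop, and Per1 also responds quickly to glucocorticoids and cyclic AMP. None of the 3 was called by edgeR in any comparison. Per3 came closest, at 14.4, 14.2, 9.01 and 9.94 CPM in Cont and 3.25, 1.66, 3.77 and 8.35 CPM in LowAhR. All LowAhR libraries thus lay below all Cont libraries, as did 5.63% of the tested genes. The fitted log2 fold change was -1.48 (SE 0.68, adjusted p = 0.346). Per3 was at 4.66, 4.18, 3.58 and 0.642 CPM in LowAhR+AD, again below every Cont library (log2 fold change -1.86, SE 0.69, adjusted p = 0.0609). That difference was called by DESeq2 (adjusted p = 0.0225) and limma voom (0.0286), and edgeR without LowAhR+AD replicate 1 gave -2.09 (0.0520). With BJIKT added it spread from 1.41 to 12.1 CPM and overlapped all other groups. Per3 lies inside Camta1 on the same strand, without shared exons, and Camta1 was lower in LowAhR+AD than in Cont (-0.98, adjusted p = 0.0370).

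Per1 was at 31.3 CPM in LowAhR+AD replicate 1 and at 5.25, 6.22 and 7.55 CPM in the other 3 LowAhR+AD libraries. The other groups spanned 2.27 to 15.4 CPM in Cont, 3.52 to 9.47 in LowAhR and 2.82 to 9.22 in LowAhR+AD+BJ. The 1 high library was thus the one that stood apart, and the rest of its group lay within the Cont range. With it the log2 fold change against LowAhR was 1.05 (SE 0.65, adjusted p = 0.307), and without it 0.06 (adjusted p = 0.968). Against Cont the value turned from 0.45 to -0.55 when that library was left out. Per2 had at most 4.75 CPM in any library and no count in Cont replicate 4 and LowAhR+AD+BJ replicate 1. Its 95% intervals for the log2 fold change spanned -2.45 to 2.21 in LowAhR+AD against LowAhR and -2.66 to 2.00 in LowAhR+AD+BJ against LowAhR+AD. Changes of either sign within those bounds were compatible with the data.

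The cryptochromes are the partners of the Period proteins and block BMAL1 and CLOCK directly. Cry2 was at 20.8, 25.3, 12.8 and 28.6 CPM in Cont and at 20, 21.8, 18.7 and 17.8 CPM in LowAhR. In LowAhR+AD it was at 19.3, 4.10, 9.40 and 7.63 CPM, and in LowAhR+AD+BJ at 5.66, 8.25, 13.3 and 9.38 CPM. All LowAhR+AD+BJ libraries lay below LowAhR, whereas 1 LowAhR+AD library, the one that stood apart, reached the LowAhR and Cont ranges. Cry2 was lower in LowAhR+AD+BJ than in Cont (log2 fold change -1.26, SE 0.41, adjusted p = 0.0385), which with Clock made 2 of 10 members called against 19.9% of all tested genes, with 8.62% called lower. That call was lost without Cont replicate 1, 2 or 4 or LowAhR+AD+BJ replicate 1, 2 or 4, with adjusted p up to 0.115. Leaving out LowAhR+AD replicate 1 made Cry2 lower in LowAhR+AD than in LowAhR (-1.48, adjusted p = 0.0169) and than in Cont (-1.65, adjusted p = 0.00410). With all libraries these were -0.95 (adjusted p = 0.135) and -1.11 (0.0600). D930015M05Rik overlaps 23417 bases of Cry2 on the opposite strand, exons included, though not the 3′ end of Cry2. The strand setting of the counting is not given, so reads from the shared bases cannot be told apart.

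Cry1 was at 13.7, 8.86, 8.63 and 10.9 CPM in LowAhR+AD, above the 4 Cont libraries at 7.70, 2.58, 7.77 and 3.47 CPM. It was at 3.65, 2.69, 5.85 and 11.3 CPM in LowAhR and at 4.38, 3.26, 6.46 and 6.66 CPM in LowAhR+AD+BJ. The LowAhR+AD libraries thus lay above those of Cont and of LowAhR+AD+BJ without overlap, and overlapped LowAhR. None of these differences passed the test, and the log2 differences of LowAhR+AD were 0.97 against Cont (SE 0.52, adjusted p = 0.201) and 0.84 against LowAhR (0.306). Cry1 differed by -1.02 between the DNCB groups with and without BJIKT (0.547). Leaving out LowAhR+AD replicate 1 gave 0.80, 0.69 and -0.87 for these 3 values.

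Nr1d1 and Nr1d2 encode REV-ERBα and REV-ERBβ, the repressors of Arntl. Nr1d2 was at 56.1, 66.5, 64.1 and 56.8 CPM in LowAhR+AD, close together, and at 69.8, 122, 142 and 115 CPM in LowAhR+AD+BJ. It was at 70.9, 90.4, 72.3 and 115 CPM in Cont and 90.1, 107, 98.2 and 59.8 CPM in LowAhR. The LowAhR+AD libraries lay below all libraries of Cont and of LowAhR+AD+BJ, and overlapped LowAhR through its replicate 4. The log2 fold change of LowAhR+AD+BJ against LowAhR+AD was 0.88 (SE 0.24, 95% interval 0.38 to 1.38), with an adjusted p of 0.498 over all tested genes. In LowAhR+AD it was -0.54 against LowAhR (adjusted p = 0.141) and -0.52 against Cont (0.130). Nr1d2 was at 0.84, -0.51 and -0.49 when LowAhR+AD replicate 1 was left out.

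Nr1d1 was at 32.2, 19.1, 21.2 and 18.7 CPM in Cont, 14.9, 26.8, 43.5 and 34.2 CPM in LowAhR, 22.8, 22.1, 32.4 and 25.3 CPM in LowAhR+AD and 24.2, 13.8, 54.9 and 27.8 CPM in LowAhR+AD+BJ. All groups overlapped, and the log2 fold changes lay between -0.22 and 0.41 over the 6 comparisons. The 95% interval for LowAhR+AD against LowAhR, in which Arntl was called, was -1.0 to 0.56 for Nr1d1. Nr1d1 lies at chr11:98767932-98775333 (GRCm38), and its last 1075 bases overlap, on the opposite strand, the 3′ end of Thra, the thyroid hormone receptor gene, exons included. The strand setting of the counting is not given in the sources used here, so reads of the pair cannot be told apart. Thra itself was lower than Cont in LowAhR+AD (-1.11, adjusted p = 0.0166) and LowAhR+AD+BJ (-1.23, adjusted p = 0.00992).

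Dbp is an output of the clock, a transcription factor that binds D-boxes of metabolic genes and of Per genes. It was at 20.7, 11, 8.64 and 18.6 CPM in Cont and at 9.06, 24.8, 19.4 and 11.8 CPM in LowAhR. In LowAhR+AD it was at 7.40, 10.01, 11.04 and 17.3 CPM, and in LowAhR+AD+BJ at 14.3, 20.4, 35.2 and 17.4 CPM. All groups overlapped, although only 1 LowAhR+AD library exceeded the lowest of LowAhR+AD+BJ. The log2 fold change was -0.51 in LowAhR+AD against LowAhR (SE 0.41, adjusted p = 0.444) and 0.93 in LowAhR+AD+BJ against LowAhR+AD (SE 0.41, adjusted p = 0.507), and -0.36 and 0.76 without LowAhR+AD replicate 1. The last 737 bases of Dbp overlap the 3′ end of Sphk2 on the opposite strand, with the same limit as for Nr1d1 and Thra, and Sphk2 was not called in any comparison.

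**Figure D3:**
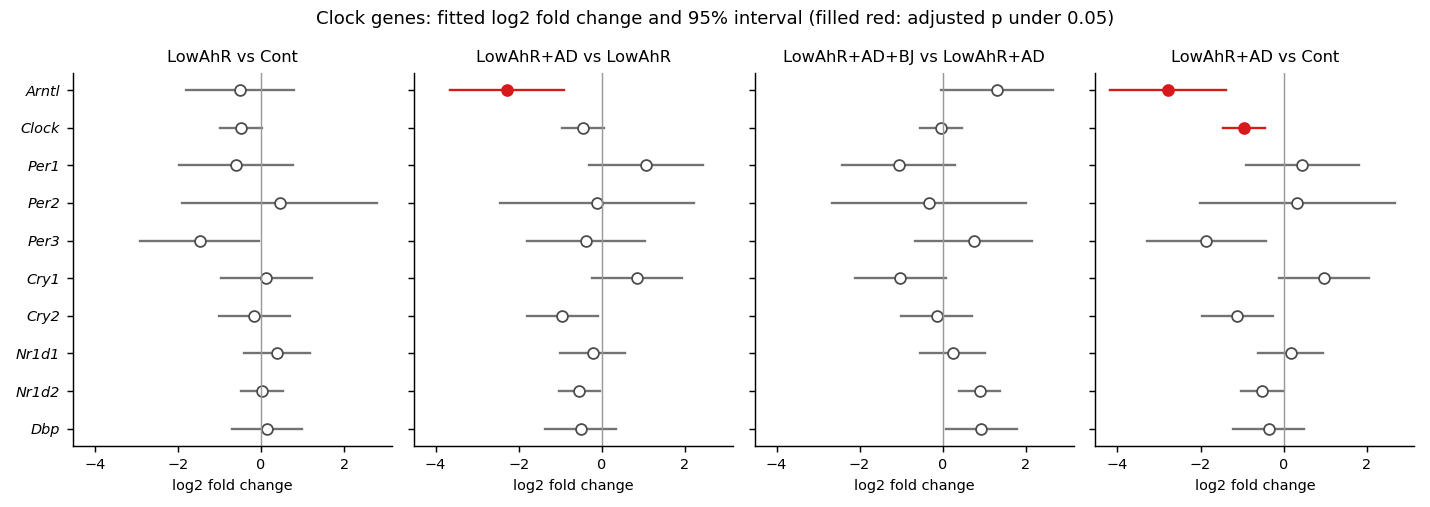
Fitted log2 fold change (points) with its 95% interval (lines) for each clock gene in 4 comparisons, on 1 shared horizontal axis; filled red points had an adjusted p under 0.05. Arntl is filled in both LowAhR+AD panels against groups without DNCB, and Clock is filled against Cont. The panels for LowAhR against Cont and for BJIKT hold no filled point.

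The diet with its bedding, without DNCB, was compared as LowAhR against Cont. No member was called by edgeR, and none of the tested genes was (0%). At an unadjusted p under 0.05 there was 1 member (Per3), against 13.7% of all tested genes, and DESeq2 and limma voom called 0 members. The median log2 fold change over the 10 members was -0.07, with 5 higher and 5 lower, and that over all tested genes was 0.03.

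For LowAhR+AD against LowAhR the median over the members was -0.42, with 2 higher and 8 lower, against 0.04 over all tested genes. Of the members, 1 (Arntl) lay below LowAhR without overlap, as did 9.85% of all tested genes. In LowAhR+AD against Cont, 4 members (Arntl, Clock, Per3 and Nr1d2) lay below without overlap, as did 11.8% of all tested genes, and 1 (Cry1) lay above, as did 12.9%. For LowAhR+AD+BJ against Cont, 1 member (Clock) lay below without overlap, as did 12.4%. When LowAhR+AD replicate 1 was left out, Arntl, Clock and Cry2 were called lower in LowAhR+AD, as 3 members of 10 against LowAhR and the same 3 against Cont, where 11.4% and 23.2% of all tested genes were called.

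BJIKT was compared as LowAhR+AD+BJ against LowAhR+AD. No member was called by edgeR, DESeq2 or limma voom, and edgeR called 0% of all tested genes. At an unadjusted p under 0.05 there were 2 members, Nr1d2 and Dbp, both higher, against 9.46% of all tested genes. Nr1d2 was higher without overlap, as were 2.42% of all tested genes, and Cry1 was lower without overlap, as were 2.65%. The median over the members was 0.10. Arntl differed by 1.3 (SE 0.64, 95% interval -0.05 to 2.64), an interval that holds both no change and a rise as large as its fall after DNCB. It differed by 0.89 without LowAhR+AD replicate 1.

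LowAhR+AD+BJ against LowAhR called 0 of 10 members with edgeR, against 6.77% of all tested genes. At an unadjusted p under 0.05 there was 1 member, Cry2 (log2 fold change -1.10, adjusted p = 0.119), against 22.2% of all tested genes. Clock and Cry2 lay below LowAhR without overlap, as did 8.19% of all tested genes.

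Arntl and Dbp peak at nearly opposite hours, so the difference between their log2 CPM was described in each library. It is not taken as a measure of phase, since Arntl and Dbp did not vary in opposite directions within the groups. The difference was -0.20 to 1.23 in Cont (median 0.625) and -0.96 to 0.95 in LowAhR (median -0.01). In LowAhR+AD it was -4.42 to -0.68 (median -2.13) and in LowAhR+AD+BJ -2.30 to -1.22 (median -1.36). All LowAhR+AD+BJ libraries lay below all libraries without DNCB, and LowAhR+AD overlapped LowAhR only through its highest library. The lowest LowAhR+AD value was that of replicate 1, with 2 Arntl counts, and the other 3 libraries were at -0.68, -1.33 and -2.94, around the LowAhR+AD+BJ values. The same difference between Arntl and Nr1d1 had medians of -0.24, -0.83, -3.17 and -1.89 in the 4 groups. Its LowAhR range, -2.11 to 0.249, overlapped both LowAhR+AD (-6.02 to -1.81) and LowAhR+AD+BJ (-2.22 to -1.75). The Cont range, -0.835 to 0.887, lay above both. Dbp and Nr1d1 themselves overlapped between all groups. The part that the hour of sampling had in it was not tested.

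**Figure D4:**
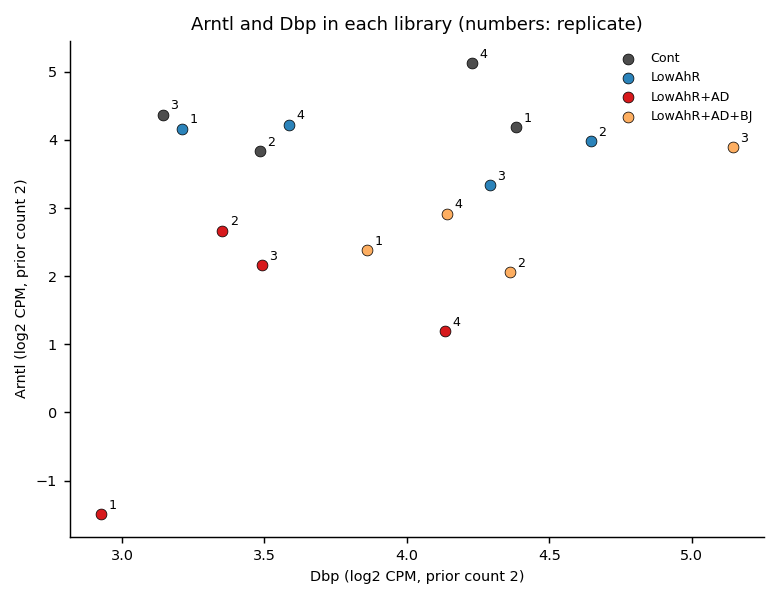
Arntl (vertical axis) against Dbp (horizontal axis), both as log2 CPM with a prior count of 2, with 1 point per library coloured by group and numbered by replicate. LowAhR+AD replicate 1 lies far below all others, and the 8 libraries without DNCB lie above 7 of the 8 DNCB libraries in Arntl while the groups overlap in Dbp.

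Beyond the 10 members, 20 other genes of the clock were taken as a list, of which 19 were tested. In LowAhR+AD against LowAhR, 2 were called, both lower, beside 12.6% of all tested genes called and 6.21% called lower, and the median over the list was -0.18. They were Rora (log2 fold change -1.57, SE 0.26, adjusted p = 0.00110), which encodes a ROR receptor that activates Arntl, and Bhlhe41 (-1.21, SE 0.25, adjusted p = 0.00500), a repressor of E-boxes. Without LowAhR+AD replicate 1, Rora was at -1.39 and Bhlhe41 at -1.26, and 3 were called, these and Tef.

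Rora was at 866, 821, 867 and 949.6 CPM in Cont, at 534, 597, 519 and 369.8 CPM in LowAhR, at 97.5, 169.8, 258 and 153 CPM in LowAhR+AD and at 173, 224, 222 and 221 CPM in LowAhR+AD+BJ. Its Cont, LowAhR and DNCB libraries formed 3 ranges without overlap. LowAhR against Cont was not called by edgeR (-0.79, SE 0.25, adjusted p = 0.145). Rora was called lower in LowAhR+AD+BJ than in LowAhR (-1.27, adjusted p = 0.00757) and than in Cont (-2.06, adjusted p = 0.000116).

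Bhlhe41 was at 30.0, 37.2, 21.3 and 23.2 CPM in LowAhR, at 13.2, 14.3, 11.2 and 9.72 CPM in LowAhR+AD and at 22.7, 22.2, 24.0 and 22.6 CPM in LowAhR+AD+BJ. Its LowAhR+AD libraries lay below all others. The difference between LowAhR+AD+BJ and LowAhR+AD (0.92, SE 0.25) had an adjusted p of 0.498.

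Against Cont, LowAhR+AD had 2 of the 19 genes called higher and 4 lower, beside 21.8% of all tested genes called, and 3 in all were called without Cont replicate 1 or LowAhR+AD replicate 2. Timeless (1.89, adjusted p = 0.0365) and Ccrn4l, the table's symbol for Noct, a deadenylase-like output gene (1.72, adjusted p = 0.0351), were higher. The Timeless call was lost without Cont replicate 1, 2 or 4 or LowAhR+AD replicate 2 or 4 (adjusted p up to 0.106), and that of Ccrn4l without Cont replicate 1, 3 or 4 or LowAhR+AD replicate 1 or 2 (up to 0.125). Timeless was not called in a fit of only the 8 libraries (0.0509), nor Ccrn4l with limma voom (0.116). Rora, Bhlhe41, Hlf (-2.15, adjusted p = 0.0253) and Tef (-1.15, adjusted p = 0.0128) were lower. Hlf and Tef encode the PAR bZIP relatives of DBP, and the Hlf call was lost without Cont replicate 1 or LowAhR+AD replicate 2 or 4 (up to 0.0828). LowAhR+AD+BJ had 3 called lower against Cont, where 19.9% of all tested genes were called, namely Rora, Hlf (-2.31, adjusted p = 0.0197) and Tef (-0.91, adjusted p = 0.0428). The Tef call was lost without any 1 of 7 libraries, Cont replicate 3 being the exception (up to 0.126), and the Hlf call without Cont replicate 1 (0.0651). In LowAhR against Cont 0 were called by edgeR and limma voom and 1 by DESeq2 (Rora), with 2 at an unadjusted p under 0.05. With BJIKT against LowAhR+AD 0 were called by edgeR, DESeq2 or limma voom, with 1 at an unadjusted p under 0.05.

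The remaining genes named for their role did not pass edgeR's test in LowAhR+AD against LowAhR. Tef differed by -0.93 (adjusted p = 0.0540), and it was called by DESeq2 (0.0267) and limma voom (0.0411), with upper-quartile factors (0.0421), with at least 10 counts in every library (0.0362), with library sizes without markers (0.0494), without LowAhR replicate 4 (0.0229) and without LowAhR+AD replicate 1 (0.00659). Hlf differed by -1.63 (0.105). Nfil3, which represses D-boxes, had 0.39 (0.647), and the E-box repressors Bhlhe40 and Ciart had 1.12 (0.114) and -0.27 (0.924). Npas2, which can replace CLOCK as the partner of BMAL1, was at 2.63 to 9.73 CPM in LowAhR and 0 to 3.58 CPM in LowAhR+AD, with no count in 2 LowAhR+AD and 2 LowAhR+AD+BJ libraries (-2.38, SE 1.36, adjusted p = 0.268). Without LowAhR+AD replicate 3, Npas2 was called at -4.94 (adjusted p = 0.0488).

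**Figure D5:**
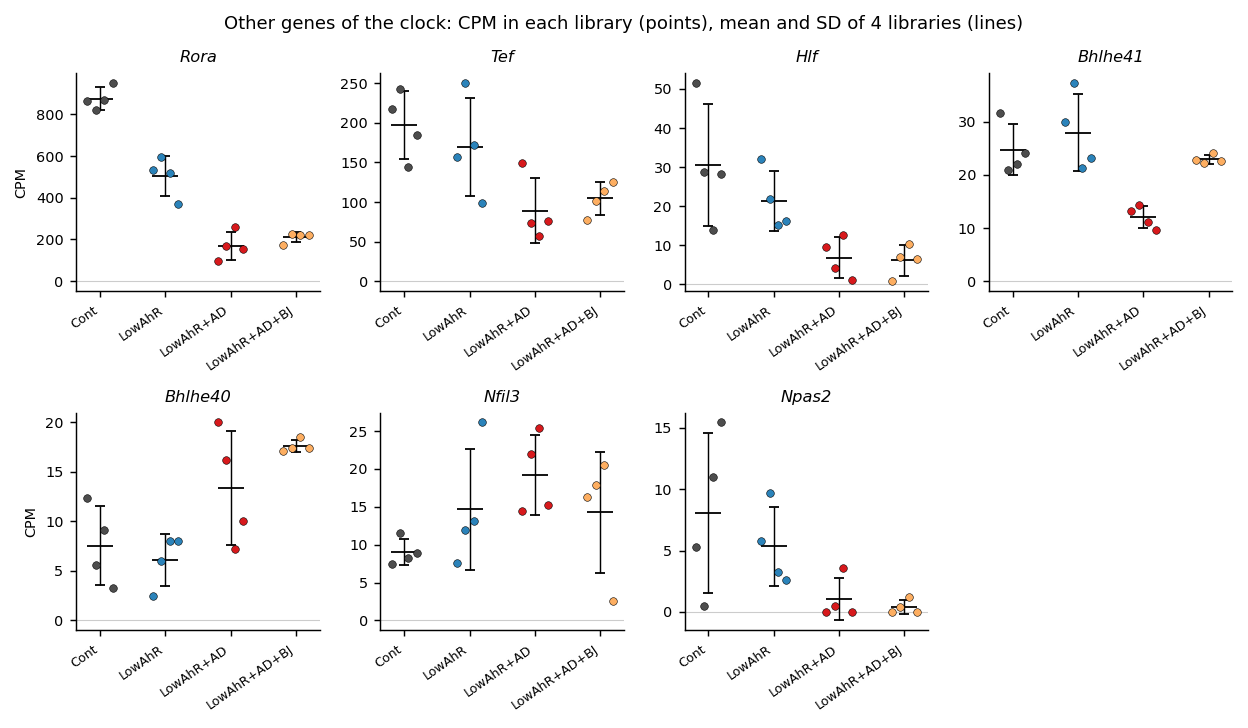
Level in CPM (linear vertical axis, own scale for each gene) of 7 other clock genes in the 4 groups; points are libraries in replicate order, and lines give the mean and SD of 4 libraries. The Rora libraries with DNCB, at 97.5 to 258 CPM, lie below all LowAhR and Cont libraries, and the LowAhR+AD libraries of Bhlhe41 lie below those of every other group.

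The make-up of the skin moved with these results, and in whole skin fewer cells of a type and less RNA per cell cannot be told apart. The summed level of 6 fibroblast markers was 27692 to 69550 CPM in Cont, 28036 to 54106 CPM in LowAhR, 3898 to 22600 CPM in LowAhR+AD and 10979 to 20009 CPM in LowAhR+AD+BJ. Against LowAhR, 5 of these 6 were lower in LowAhR+AD, with 2 called, and the mean of Pdgfra was higher (62.2 against 50.8 CPM). The summed level of 14 skeletal muscle markers was 11886 to 27930 CPM in LowAhR and 575 to 4666 CPM in LowAhR+AD, and all 14 were called lower. The 7 markers of activated keratinocytes were all called higher, from a sum of 589 to 1812 CPM in LowAhR to 12012 to 35898 CPM in LowAhR+AD. Hair follicle markers summed to 108 to 12908 CPM in LowAhR and 7431 to 35386 CPM in LowAhR+AD, and 1 of 16 was called. The summed level of 10 adipocyte markers was 7796 to 12350 CPM in LowAhR and 456 to 4072 CPM in LowAhR+AD, and 7 were called lower. LowAhR+AD replicate 1 held the lowest Arntl value. It also held the lowest sums of any library for fibroblast (3898 CPM), adipocyte (456 CPM) and macrophage markers (58.2 CPM). The lowest skeletal muscle sum, 575 CPM, was in LowAhR+AD replicate 3. No marker of the fibroblast, skeletal muscle or activated keratinocyte lists was at 0 in all libraries of a group. The part of tissue make-up in the levels of Arntl, Clock, Cry2 and Rora was not tested. Library sizes without hair follicle, muscle and fat markers left the member calls as they were. That setting changes only the scaling of the libraries and cannot remove a change in cell mix.

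Likeness to Arntl and Dbp was described by Pearson's r of deviations of log2 CPM from the group means, over 16 libraries and 9383 genes with a mean of at least 10 CPM. Among the 5 genes outside the members most like Dbp were Pink1 (0.8), AW554918 (0.756) and Pkib (0.743). Without LowAhR+AD replicate 1, Sphk2, which overlaps Dbp, was among the first 5 (0.839). Among the members, Dbp varied with Nr1d1 (0.516) and Nr1d2 (0.502), both BMAL1 targets, and these values were 0.516 and 0.494 without that library. Among the 5 most like Arntl were Wwtr1 (0.941), Tollip (0.927), Ulk2 (0.919) and Gm561 (0.915), of which Wwtr1 (0.882) was also among the first 5 over 15 libraries. Arntl and Per1 varied in opposite directions (-0.798, and -0.682 over 15 libraries), and so did Arntl and Clock (-0.702, and -0.327 over 15 libraries). Arntl varied weakly in the same direction as Dbp (0.31, and 0.0911 over 15 libraries), Nr1d1 (0.23 and 0.277) and Nr1d2 (0.288 and 0.345). The libraries share depth and tissue make-up, and the ranking is over many genes.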

How the data were processed

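QuantSeq 3′ sequencing from a single end measured skin RNA in 16 libraries, 4 per group. The authors deposited whole-number read counts per gene symbol for each library, without normalization. The submitters' processing notes name mm10, Bowtie2 and bedtools. The gene annotation, the strand setting and the treatment of reads with several matches are not given in the sources used here. Groups and replicates were taken from the sample labels.

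Counts of all 16 libraries were fitted in 1 model with edgeR 4.0.16 in R 4.3.3 (TMM factors of 0.892 to 1.16, filterByExpr at 10 counts and a total of 15, glmQLFit and glmQLFTest). P-values were adjusted by Benjamini-Hochberg over 14854 rows, and a gene was called under 0.05. Replicates differed far beyond sampling noise (chi-square per degree of freedom 16.9 to 300), so each counted as 1 sample. Levels are CPM, and log2 CPM used a prior count of 2. Positions came from the GRCm38 annotation and promoters from RefSeq. The test was checked on simulated counts. The alternatives tried were DESeq2 1.42.0, limma voom 3.58.1, RLE or upper-quartile factors, other filters, fewer libraries, a replicate block and other library sizes. The members and lists were chosen with earlier results of these data known. Named genes were all members, called genes of the list of other clock genes with a fixed few beside them, the 5 genes most like Arntl and Dbp, and genes of the count tables that overlap a member. Genes of the glucocorticoid and temperature lists and the marker lists were named after their values were seen. Some genes of the list of other clock genes and of the likeness ranking are not reported here.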

Additional observations from a re-analysis of the deposited data

Results flagged for a closer look

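Within each group of 4 libraries, the highest and the lowest library of each member were tested by Dixon's criterion on log2 CPM. Of the 40 groups tested, 2 held a library far from the others, about what chance gives at 1 in 20. Per2 in LowAhR+AD+BJ had its lowest library at replicate 1, with 0 CPM against 2.65 to 3.13 CPM in the other 3 libraries. Per3 in LowAhR+AD had its lowest library at replicate 4, with 0.642 CPM against 3.58 to 4.66 CPM in the other 3 libraries. When it was left out, the difference of Per3 between LowAhR+AD and LowAhR moved from -0.38 to -0.043 on the log2 scale, and neither value was called.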

How the results depend on the processing

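Over the 60 log2 fold changes of members in 6 comparisons, 1002 alternative values were computed. Of these, 925 kept their direction and their side of the threshold, 12 lost a call, 13 gained one and 52 changed sign, in 20 results of which 0 were called. Members called in LowAhR+AD against Cont numbered 4 with DESeq2 and 4 with limma voom (Arntl, Clock, Cry2 and Per3) in place of 2, and 3 with upper-quartile factors (Cry2 added). The shares of all tested genes called under these settings are not reported here. Arntl in LowAhR+AD+BJ against Cont was called with limma voom (adjusted p = 0.0474) and in the fit of 8 libraries (0.0254). In LowAhR+AD against LowAhR they numbered 0 where at least 10 counts were required in every library, which left 7 members and not Arntl, and 0 in a fit of only the 8 libraries compared, in which Arntl had an adjusted p of 0.106; with those 8 libraries LowAhR+AD+BJ against LowAhR gave 1 (Cry2). Of the other clock genes, DESeq2 called 4 in place of 1 in LowAhR+AD+BJ against LowAhR and 6 in place of 3 against Cont. A fit of only the 8 libraries gave 2 and 6 there, with 1 in place of 0 in LowAhR against Cont, and the filter of 10 counts in every library gave 2 in LowAhR+AD+BJ against LowAhR. Leaving out 1 library gave 0 to 3 called members in LowAhR+AD against LowAhR, 2 to 3 in LowAhR+AD against Cont, 1 to 2 in LowAhR+AD+BJ against Cont and 1 to 3 in the test of any difference.

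Same-numbered libraries varied together weakly at most. Over 24 pairs the correlation of their deviations from the group means was -0.0547 to 0.167, with 3 over 0.1. Of the 16 libraries, 7 were closest to one of their own number, and the number that chance would give was not computed. With the replicate block 1 member was called in LowAhR+AD+BJ against Cont, since Cry2 had an adjusted p of 0.0663, and Cry2 was not called in the test of any difference. The block turned the log2 fold change of Clock in LowAhR+AD+BJ against LowAhR+AD to 0.0012 (adjusted p = 0.999). The signs that changed under other settings were those of Nr1d1 in LowAhR+AD+BJ against LowAhR (-0.0057 with RLE, -0.018 with upper-quartile factors, -0.0058 with DESeq2, -0.023 with limma voom, -0.0022 with the strict filter and -0.059 with the replicate block), Cry2 in LowAhR+AD+BJ against LowAhR+AD (0.015 with limma voom), and, against Cont in LowAhR+AD+BJ, Per2 (0.018 with limma voom, 0.0031 without a filter) and Cry1 (0.068 with limma voom). The cause was not tested.

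Leaving out 1 library turned these log2 fold changes within the ranges given. In LowAhR against Cont they were Cry1 (-0.40 to 0.37), Nr1d2 (-0.076 to 0.19) and Dbp (-0.13 to 0.35). In LowAhR+AD against LowAhR they were Per2 (-0.50 to 0.15), Nr1d1 (-0.44 to 0.029), Per3 (-0.65 to 0.18) and Ciart (-0.86 to 0.27). In LowAhR+AD+BJ against LowAhR+AD they were Per2 (-0.60 to 0.082), Nr1d1 (-0.23 to 0.46), Cry2 (-0.41 to 0.37), Per3 (-0.014 to 1.06) and Clock (-0.16 to 0.22). In LowAhR+AD+BJ against LowAhR they were Cry1 (-0.42 to 0.35), Per1 (-0.29 to 0.29), Nr1d1 (-0.44 to 0.26) and Per3 (-0.38 to 0.92). In LowAhR+AD against Cont they were Per2 (-0.081 to 1.06) and Per1 (-0.55 to 0.81). In LowAhR+AD+BJ against Cont they were Per2 (-0.41 to 0.71), Cry1 (-0.28 to 0.18) and Nr1d1 (-0.050 to 0.64). In likeness, chosen for this after the data were seen, the sign turned without LowAhR+AD replicate 1 for Dbp with Per1 (-0.0961 to 0.118) and for Arntl with Per2 (0.0617 to -0.217), Cry1 (-0.0784 to 0.164) and Cry2 (-0.447 to 0.208). Low counts of Per2 and the spread of 4 libraries per group limit what could be detected.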

Other observations

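Glucocorticoids and temperature both reset clocks outside the brain, and genes known to respond to them were counted in the same fit. Of 8 glucocorticoid-responsive genes, 3 were called higher and 2 lower in LowAhR+AD against LowAhR, in which 12.6% of all tested genes were called. Sgk1, a kinase, rose (log2 fold change 2.19, adjusted p = 0.00637), as did the metallothioneins Mt2 (1.3, adjusted p = 0.0149) and Mt1 (1.02, adjusted p = 0.0361), which metals and inflammation also induce. Sgk1 was at 329.8 CPM in LowAhR+AD replicate 1 and at 49.0 to 84.3 CPM in the rest of that group, and without that library the difference was 1.14 (adjusted p = 0.00985). Tsc22d3, which encodes GILZ (-1.33, adjusted p = 0.00577), and the transcription factor gene Klf9 (-0.96, adjusted p = 0.0166) fell. Fkbp5, a co-chaperone of the glucocorticoid receptor, was at -0.02 (adjusted p = 0.981). The Mt1 call was lost without any 1 of the LowAhR libraries or LowAhR+AD replicate 2 or 4 (adjusted p up to 0.0984), that of Mt2 without LowAhR replicate 2 (0.0525) and that of Klf9 without LowAhR+AD replicate 2 (0.0514). A fit of only the 8 libraries compared lost Sgk1 (0.0569), Mt2 (0.0603) and Mt1 (0.0539).

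Of 6 temperature-responsive genes, 2 were called higher, the heat shock genes Hsph1 (1.38, adjusted p = 0.00352) and Dnajb1 (0.72, adjusted p = 0.0325). The Dnajb1 call was lost without LowAhR replicate 1, 2 or 3 or LowAhR+AD replicate 1 or 4 (up to 0.107), and in the fit of 8 libraries (0.105). The cold-induced genes Cirbp and Rbm3 were at -0.38 (adjusted p = 0.319) and 0.31 (0.376). In LowAhR+AD+BJ against LowAhR+AD, 0 genes of either list were called by edgeR, with 0 at an unadjusted p under 0.05.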
